A study of Mus musculus with 14 samples.

Results

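The sites examined were WDR5 peaks called in every condition of an MLL-AF9 leukemia model except after treatment with MM-401. They were selected on the deposited WDR5 peak lists. A site was a DMSO WDR5 peak on the autosomes, at most 500 bp wide, that shared at least 1 bp with an EtOH WDR5 peak and with a 4OHT WDR5 peak and with no MM-401 WDR5 peak. The rule found 944 such peaks, or 6.87% of the 13744 autosomal DMSO WDR5 peaks of that width and a part of the 14481 DMSO WDR5 peaks in all. They are called MM-401-only absent peaks below, where absent means not called in that list.

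The cells were mouse bone marrow cells transduced with the MLL-AF9 fusion (MAF9) and grown with interleukin-3 at 10 ng per ml, so the fusion was present in every group. MAF9 cells received MM-401 at 20 µM or its solvent DMSO for 2 days. A separate MAF9-transduced line, MLL1 flox/flox with ER-cre+/-, received 4-hydroxytamoxifen (4OHT) at 400 nM or its solvent ethanol (EtOH) for 2 days. The DMSO and EtOH controls therefore came from different lines, and the rule used both. Each of the 4 conditions had 1 chromatin immunoprecipitation and sequencing (ChIP-seq) library for WDR5 and 1 for dimethylated histone H3 lysine 4 (H3K4me2), and MLL1 had 1 library in each MAF9 condition. The lists held positions without heights or reads, so depth was unknown and a peak below a caller's threshold could not be told apart from a lost one. There was no replicate error, and no test between conditions was possible. The MLL1 flox/flox line had no MLL1 list, so these data do not show whether the 4OHT library came from cells without MLL1.

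MLL1 is a histone methyltransferase that methylates lysine 4 of histone H3. WDR5 belongs to the core shared by complexes of MLL1 and its relatives, and it holds MLL1 through a short motif known as the WIN motif. MM-401 is a peptidomimetic that occupies the WDR5 pocket for this motif and so blocks its contact with MLL1, whereas 4OHT activates the Cre recombinase that removes the floxed Mll1 alleles. H3K4me2 marks active and poised promoters and enhancers, where it commonly flanks a nucleosome-poor centre.

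The order of the selection shows where peaks left the set. Of the 13744 DMSO peaks, 4497 (32.7%) were overlapped in EtOH, and 2166 of these (48.2%) were also overlapped under 4OHT. Most narrow DMSO WDR5 peaks thus did not recur in the control library of the other line. Of the 2166 recurrent peaks, 944 (43.6%, 95% Wilson interval 41.5 to 45.7%) were absent under MM-401 and 1222 were present in all 4 lists. Over all 13744 peaks the share absent under MM-401 was 61.2%. These counts came from the lists that the rule used and are given as a description.

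The same count for the other lists also gave frequent absence. Among DMSO peaks overlapped in EtOH and MM-401, 1126 of 2348 (48.0%) were absent under 4OHT only. Among those overlapped under 4OHT and MM-401, 691 of 1913 (36.1%, 34.0 to 38.3%) were absent only in EtOH, a control list. Absence from a single list was therefore frequent for a list from untreated cells as well. The lists had unequal lengths, with 17273 WDR5 peaks for MM-401, 34587 for EtOH and 41054 for 4OHT. The rule thus required presence in the longer EtOH and 4OHT lists and absence from the shorter MM-401 list. The MM-401 list also shared its line with DMSO, and the EtOH and 4OHT lists did not. The shares absent therefore do not rank the conditions. A further 1205 peaks, called in DMSO and EtOH, were absent under both MM-401 and 4OHT. This set, the 1222 peaks in all 4 lists, the 1126 peaks absent under 4OHT only and the 691 peaks absent in EtOH only are used for comparison.

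The MM-401-only absent peaks were narrower than the peaks in all 4 lists. Their median width was 200 bp in DMSO with quartiles of 125 and 300 bp, against 300 bp for the peaks in all 4 lists. The median was 175 bp for the peaks absent under both MM-401 and 4OHT and also for all 13744 peaks. It was 250 bp for the peaks absent under 4OHT only and 225 bp for those absent in EtOH only. Each set absent from a list was thus narrower at the median than the peaks in all 4 lists. The EtOH peaks over the MM-401-only absent peaks had a median width of 275 bp and the 4OHT peaks 250 bp. Their centres lay at a median of 87.5 bp from the DMSO centre in both lists, and they covered a median of 72.7% of the DMSO peak in EtOH and 70.3% under 4OHT. At the median these sites therefore shared most of their length with the peaks of the other line.

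Absence under MM-401 went with width. Among the 2166 recurrent peaks it was 71.0% of the 221 peaks of 75 to 100 bp, 59.8% of the 587 peaks above that and up to 200 bp, 40.0% of the 618 above 200 and up to 300 bp, and 25.5% of the 740 above 300 and up to 500 bp. Absence from the other lists went with width as well. Peaks of 75 to 100 bp were 5.24% of the peaks in all 4 lists. They were 10.0% of those absent under 4OHT only and 10.4% of those absent in EtOH only. For peaks above 300 and up to 500 bp the shares were 45.1%, 29.0% and 23.0%. The gradient was therefore not particular to MM-401. Comparisons with other sets are given below both as measured and at the widths of the 944 peaks, that is, with the other set weighted to the same shares of these 4 width classes.

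At the limits of the rule the peaks formed a continuum. The nearest end of an MM-401 WDR5 peak, on either side, was 1 bp away at 35 MM-401-only absent peaks, so that the peaks touched, 26 bp away at 27 and 51 bp away at 25. On the other side of the limit, 30 of the peaks in all 4 lists shared only 25 bp with their MM-401 peak and 46 shared 50 bp. Of the 944 peaks, 11 had the full 500 bp and 16 had 475 bp, while 59 wider peaks met every other criterion, 10 of them at 525 bp and the widest at 1700 bp. Neither limit separated distinct classes of sites.

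Named sites show the range. Coordinates are those deposited, in mm9, the mouse build named in the submitters' processing notes. One of the widest lay at chr1:87600301-87600800. WDR5 was called there over 125 bp in EtOH and over 475 bp under 4OHT, no MM-401 WDR5 peak came closer than 12801 bp, and H3K4me2 was called in every condition, over 950 bp in DMSO and 2350 bp under MM-401. The mark thus extended over the site in the condition that lacked WDR5. A second wide site, chr3:79371276-79371775, lay in H3K4me2 peaks of 2125 bp in DMSO and 2175 bp under MM-401, but an MM-401 WDR5 peak began only 151 bp away. The first site was far from any MM-401 WDR5 peak and the second sat beside one, and both met the rule.

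H3K4me2 was called at most of the MM-401-only absent peaks in each condition, and more often under MM-401 than in DMSO. It overlapped 770 of 944 in DMSO (81.6%, 79.0 to 83.9%), 868 after MM-401 (91.9%, 90.0 to 93.5%), 893 in EtOH (94.6%, 93.0 to 95.9%) and 854 after 4OHT (90.5%, 88.4 to 92.2%). Over all 13744 peaks H3K4me2 overlapped 88.7% in DMSO and 92.6% after MM-401, and in the other line 91.3% in EtOH and 88.8% after 4OHT. The 944 peaks were thus below the background in DMSO, near it under MM-401 and 4OHT, and above it in EtOH. In EtOH the share was also 96.3% at the peaks in all 4 lists and 97.7% at those absent under both treatments. It was 94.0% at those absent under 4OHT only and 94.2% at those absent in EtOH only. A share above the background in EtOH was therefore not particular to the 944 peaks. Absence of a WDR5 peak under MM-401 was not accompanied by absence of H3K4me2.

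**Figure D1:**
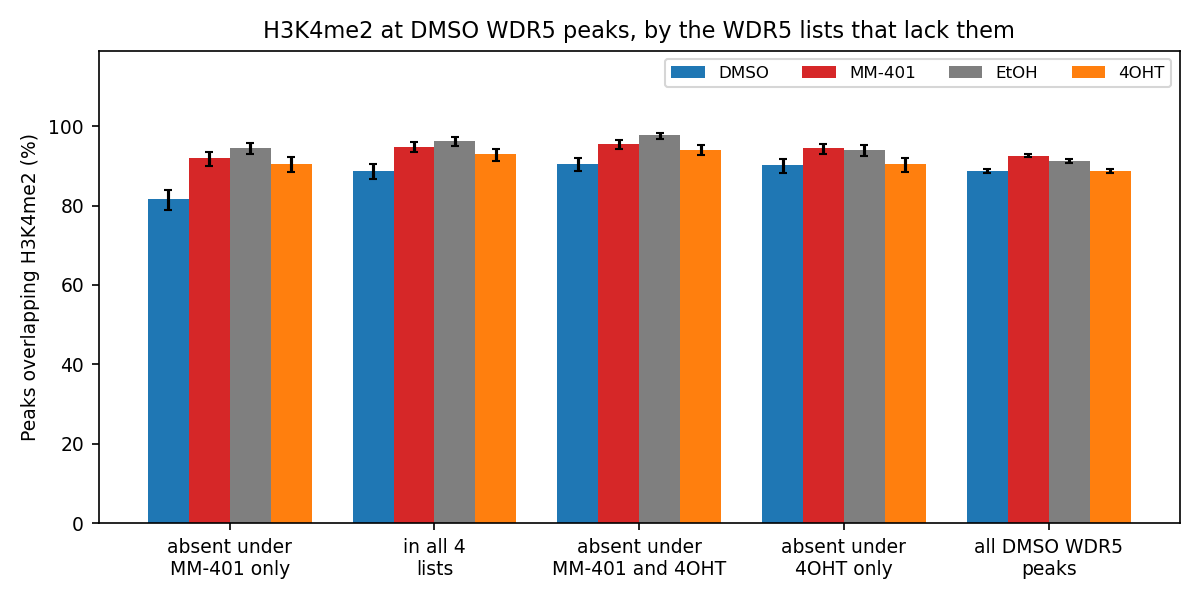
Share of DMSO WDR5 peaks (%) that overlapped H3K4me2 in the DMSO, MM-401, EtOH and 4OHT lists, for peaks absent under MM-401 only (944), in all 4 lists (1222), absent under MM-401 and 4OHT (1205), absent under 4OHT only (1126) and all 13744 peaks. Bars are shares and lines 95% Wilson intervals that cover the counting of peaks only. The bar for DMSO at the first set, 81.6%, is the lowest shown.

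The pattern over the conditions was mostly uniform. H3K4me2 was called in all 4 conditions at 756 of the 944 peaks (80.1%) and in none at 44 (4.66%), against 83.0% and 4.18% of all 13744 peaks. The most frequent mixed pattern was H3K4me2 in every condition except DMSO, at 83 peaks (8.79%, 7.15 to 10.8%), against 3.54% (3.24 to 3.86%) of all peaks. It was found at 5.16% (4.05 to 6.54%) of the peaks in all 4 lists and 3.90% of those absent under both treatments. In the opposite direction, 4 peaks (0.42%, 0.16 to 1.08%) had H3K4me2 in DMSO and none under MM-401, against 239 (1.74%) of all peaks. The share was 0.98% of the peaks in all 4 lists and 0.50% of those absent under both treatments. It was 1.42% for 4OHT only and 1.59% for EtOH only. The Wilson intervals of these sets overlapped that of the 944 peaks. One of the 4 peaks, chr11:98927326-98927525, overlapped an H3K4me2 peak of 550 bp in DMSO, and under MM-401 a peak of 600 bp ended 26 bp short of it. Another, chr19:3696176-3696325, had 550 bp of H3K4me2 in DMSO and the nearest MM-401 peak, of 75 bp, at 326 bp. In both cases the mark remained called close by.

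Compared with peaks in all 4 lists, the MM-401-only absent peaks carried H3K4me2 less often in DMSO, with a difference of -7.14 percentage points (95% Newcombe interval -10.2 to -4.12). Part of this went with width. At the widths of the 944 peaks the difference was -2.01 points (-5.75 to 1.74) in DMSO, -0.070 points (-2.83 to 2.69) after MM-401, -0.13 points (-2.40 to 2.14) in EtOH and 1.25 points (-1.82 to 4.32) after 4OHT. Each of these intervals included 0, so a difference between the sets was not detectable once width was set equal. Within the narrowest class, 71.3% of 157 MM-401-only absent peaks and 67.2% of 64 peaks in all 4 lists had H3K4me2 in DMSO, and in the widest class 91.0% of 189 and 94.6% of 551.

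The other sets did differ in DMSO at equal widths. H3K4me2 in DMSO was called at 90.5% of the peaks absent under both MM-401 and 4OHT, and the difference at equal widths was -9.78 points (-12.7 to -6.85). At peaks absent under 4OHT only it was called at 90.1%, a difference of -7.22 points (-10.4 to -4.00). Under MM-401 the difference from the first of these sets was -4.30 points (-6.31 to -2.29) and from the second -1.46 points (-3.85 to 0.93), an interval that included 0. At the 691 peaks absent in EtOH only, H3K4me2 in DMSO was called at 90.9%, and the difference at equal widths was -8.72 points (-12.1 to -5.32). The share in DMSO at the 944 peaks was therefore lower than in each of these 3 sets, and a difference from the peaks in all 4 lists was not detectable at equal widths.

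The peaks without H3K4me2 in DMSO mostly lay in short breaks of the mark. Of the 944 peaks, 128 (13.6%, 11.5 to 15.9%) had no H3K4me2 over them in DMSO but had an H3K4me2 peak on both sides within 1 kb, and the break had a median length of 575 bp. The same arrangement was found at 36 peaks under MM-401 (3.81%), at 9 in EtOH (0.95%) and at 46 under 4OHT (4.87%). Of the 83 peaks that lacked H3K4me2 in DMSO alone, 79 were in such a break. This measure was chosen after the lists had been examined.

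Over all 13744 peaks, 5.26% lay in an H3K4me2 break in DMSO. The share was 6.87% of the peaks in all 4 lists, 7.55% of those absent under both MM-401 and 4OHT 4.62% of those absent under 4OHT only and 4.78% of those absent in EtOH only. At the widths of the 944 peaks the excess was 6.66 points (4.05 to 9.27) over the peaks absent under both treatments 8.08 points (5.43 to 10.7) over the peaks absent under 4OHT only and 8.24 points (5.40 to 11.1) over the peaks absent in EtOH only. Over the peaks in all 4 lists it was 6.69 points (4.12 to 9.35) as measured and 3.13 points (-0.11 to 6.37) at equal widths, so that the last interval included 0. A break in DMSO was thus more frequent at the 944 peaks than in each of the 3 sets absent from another list, while the excess over the peaks in all 4 lists was not detectable at equal widths.

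**Figure D2:**
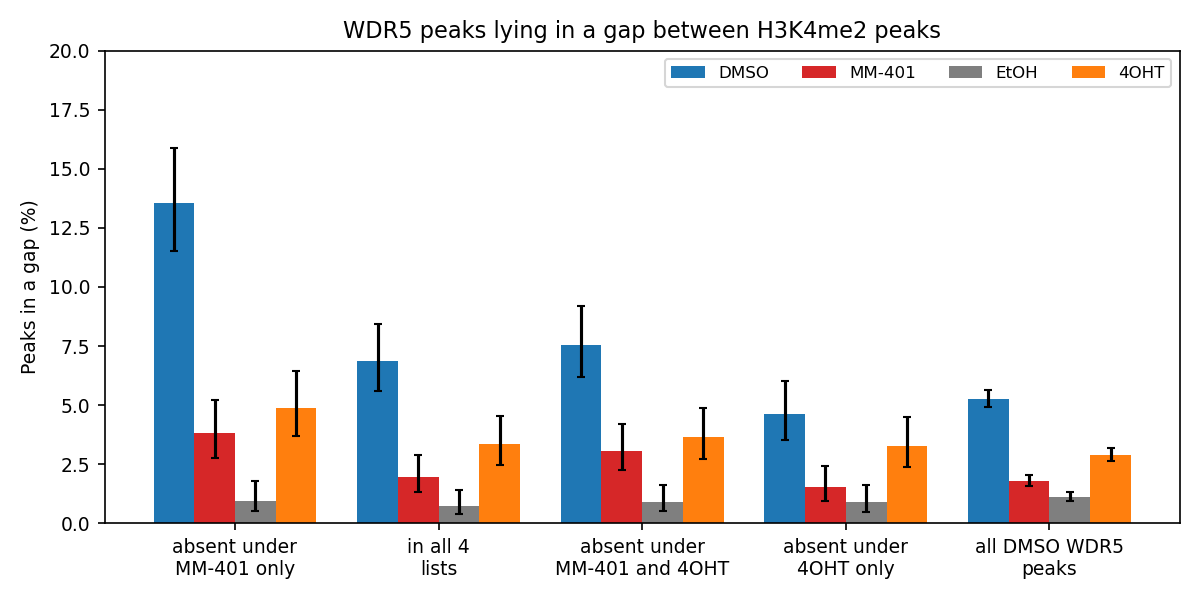
Share of WDR5 peaks (%) with no H3K4me2 over them but an H3K4me2 peak within 1 kb on both sides, by set of DMSO WDR5 peaks and by H3K4me2 list. Bars are shares and lines 95% Wilson intervals. The DMSO bar of the peaks absent under MM-401 only, 13.6%, stands above the DMSO bars of the other sets shown, which run from 4.62% to 7.55%.

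In the other lists H3K4me2 overlapped the WDR5 position at 96 of them (75%) after MM-401, 120 (93.8%) in EtOH and 89 (69.5%) after 4OHT. The whole break was covered at 79 sites in EtOH, at 22 under MM-401 and at 17 under 4OHT. Because the sites were picked for having no H3K4me2 over them in DMSO, these counts describe them and do not compare DMSO with the other lists. An MM-401 WDR5 peak lay within 2 kb of 73 of the 128 (57.0%, 48.4 to 65.3%) and of 370 of the remaining 816 (45.3%, 42.0 to 48.8%).

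The average shape showed the same dip. At the centre of the 944 peaks H3K4me2 covered 68.6% of positions in DMSO, 86.6% after MM-401, 93.6% in EtOH and 82.7% after 4OHT. At 500 bp from the centre the values were 83.6%, 89.7%, 92.4% and 88.5%. Coverage in DMSO thus rose away from the site, and coverage in EtOH did not. A dip in DMSO was also present at the peaks in all 4 lists, with 71.4% at the centre, 83.8% at 250 bp and 82.5% at 500 bp. The presence of a dip was therefore not particular to the MM-401-only absent peaks. At 250 bp the 944 peaks stood at 74.8% in DMSO, so their dip reached further from the centre. The profiles were not set to equal widths.

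**Figure D3:**
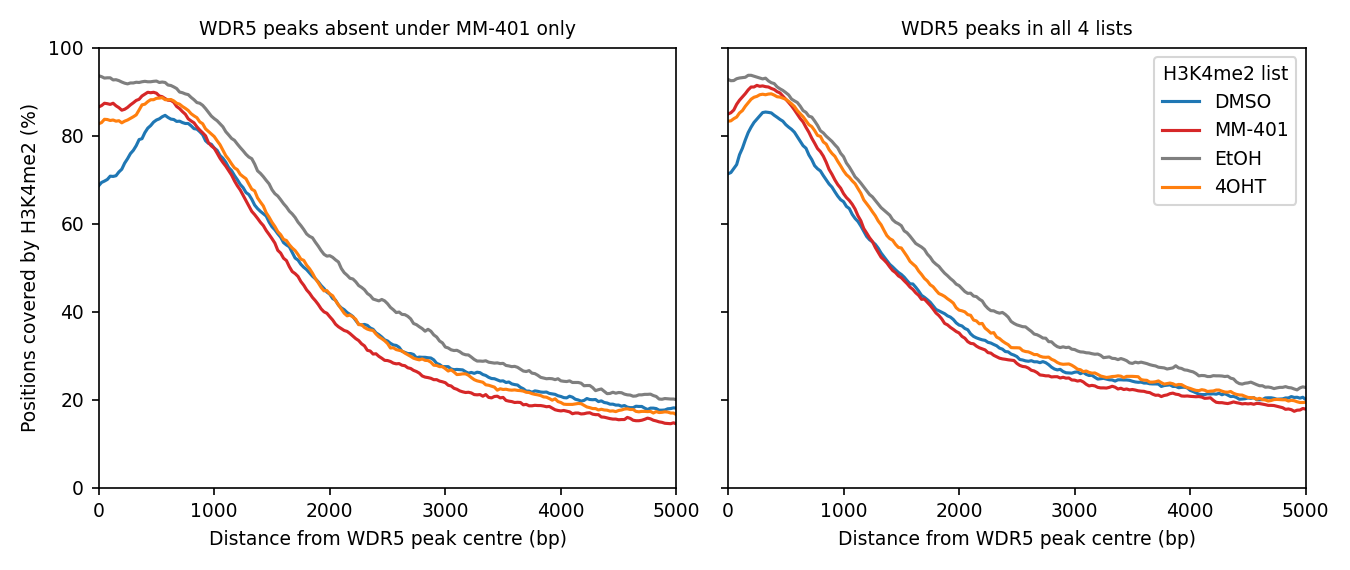
Share of positions (%) covered by H3K4me2 against distance from the WDR5 peak centre (bp, both sides pooled), for the 944 peaks absent under MM-401 only and the 1222 peaks in all 4 lists, with 1 line for each H3K4me2 list. In DMSO the centre is covered less than the flanks in both panels, at 68.6% and 71.4%.

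Where H3K4me2 was called over the site, its peak was broad. The median width at the 944 peaks was 2125 bp in DMSO, 2762 bp after MM-401, 3850 bp in EtOH and 2850 bp after 4OHT. At peaks in all 4 lists these medians were 2050, 2475, 3375 and 2650 bp. Taken site by site, 468 of the 766 MM-401-only absent peaks with H3K4me2 in both MAF9 lists had a wider peak under MM-401 and 282 a narrower one, with a median change of 125 bp. The median change was also 125 bp at the peaks in all 4 lists and was 75 bp over all peaks. In the MLL1 flox/flox line the direction was the opposite. The H3K4me2 peak was narrower under 4OHT than in EtOH at 707 of 851 sites and wider at 132, with a median change of -600 bp, against -375 bp at the peaks in all 4 lists and -325 bp over all peaks.

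Over a longer window the H3K4me2 around these sites did not increase under MM-401. Within 5 kb of the centre the bases covered were fewer under MM-401 than in DMSO at 545 of the 944 sites and more at 348, with a median change of -100 bp, against 7038 fewer, 6057 more and a median of -25 bp over all 13744 peaks. At the peaks in all 4 lists 575 had fewer and 600 more, with a median change of 0 bp. At the peaks absent under both MM-401 and 4OHT the median change was -100 bp as well. More frequent H3K4me2 over the site under MM-401 was common to all sets, as the shares above show, and lower coverage within 5 kb was found over all peaks and in both sets that lacked WDR5 under MM-401. From EtOH to 4OHT, coverage within 5 kb was lower at 809 of the 944 sites and higher at 90, with a median change of -525 bp. The same direction was found over all peaks, with 10126 lower, 2797 higher and a median of -325 bp, and the median was -350 bp at the peaks in all 4 lists and -450 bp at those absent under both treatments.

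Some of the sites lay in very wide H3K4me2 domains. At chr11:117186901-117187300 the domain measured 12975 bp in DMSO, 13075 bp after MM-401, 19375 bp in EtOH and 18325 bp after 4OHT, and an MM-401 WDR5 peak lay within 500 bp of the site. At chr7:108004576-108004675 the domain was 11775 bp in DMSO and 11500 bp under MM-401, with 149676 bp to the nearest MM-401 WDR5 peak. The domain at the second site was called under MM-401 without an MM-401 WDR5 peak inside it. Of the 770 sites with H3K4me2 in DMSO, 270 (35.1%) shared their H3K4me2 peak with an MM-401 WDR5 peak, and 404 (52.5%) were the only WDR5 peak of either MAF9 list in it. The 770 sites lay in 756 distinct H3K4me2 peaks. These counts were not made for the other sets or over all DMSO WDR5 peaks, so they are a description only.

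The 44 sites outside H3K4me2 in every condition (4.66%, 3.49 to 6.20%) were about as frequent as among all peaks (4.18%). Such sites were less frequent in the comparison sets. They were 2.37% (1.66 to 3.39%) of the peaks in all 4 lists and 1.41% (0.88 to 2.25%) of those absent under both treatments. The shares were 2.84% (2.02 to 3.98%) for 4OHT only and 2.32% (1.43 to 3.73%) for EtOH only. These shares were not set to equal widths. The median width of the 44 sites was 150 bp, and 35 of them were more than 2 kb from any H3K4me2 peak of every list. The same number, 35, lay more than 10 kb from an MM-401 WDR5 peak, and 1 overlapped MLL1. The widest was chr11:117764901-117765325, where WDR5 was called over 275 bp in EtOH and 225 bp under 4OHT and the nearest H3K4me2 lay 5176 bp away in DMSO. At chr9:59446426-59446800 WDR5 was called over 175 bp in EtOH and 400 bp under 4OHT, and H3K4me2 was 3226 bp away in both DMSO and MM-401. WDR5 recurred at these sites in 3 lists without the mark.

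Distances to the nearest MM-401 WDR5 peak covered a wide range. The distance is a description, since the rule set it above 0. Its median was 3514 bp with quartiles of 276 and 30976 bp, and the distances ran from 1 bp to 2349851 bp. An MM-401 peak lay within 100 bp of 113 sites (12.0%), within 500 bp of 319 (33.8%), within 2 kb of 443 (46.9%) and within 10 kb of 570 (60.4%). The other 374 (39.6%) had none within 10 kb. For the peaks absent under both MM-401 and 4OHT the median was 5126 bp and the share within 500 bp was 29.7%. These distances depended on the selection. With the widest 50% of each WDR5 list the median was 28251 bp and the share within 2 kb 23.4%. With 50% of the DMSO peak required to be covered the median was 626 bp. In that setting absence meant less than 50% covered under MM-401, so sites that overlapped an MM-401 peak were included. The nearest MM-401 peak overlapped a DMSO WDR5 peak at 268 of the 944 sites (28.4%). The same share over all MM-401 WDR5 peaks was not computed, so this count is a description only.

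**Figure D4:**
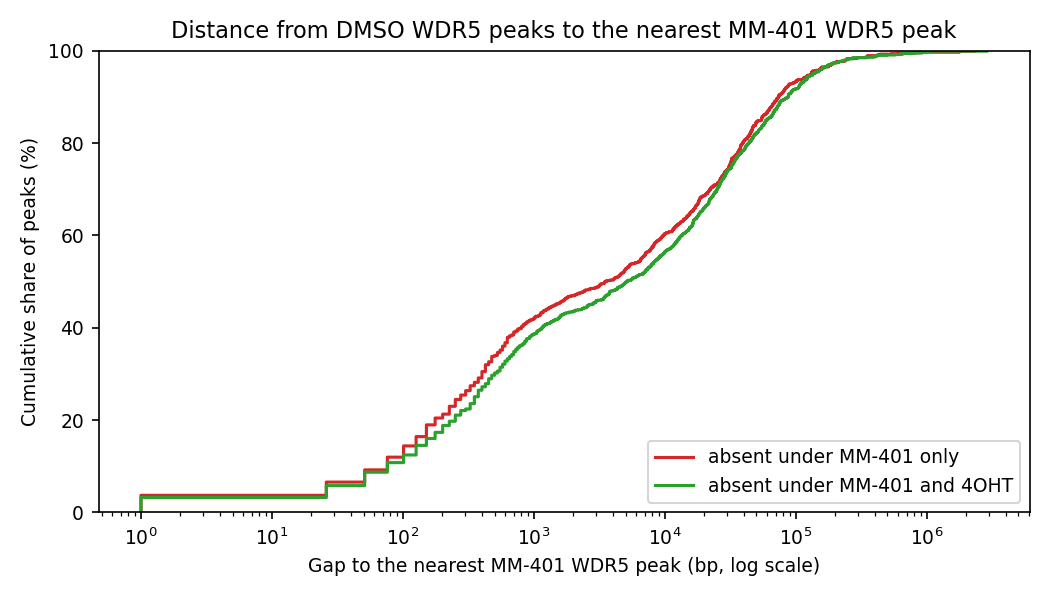
Cumulative share of peaks (%) against the gap to the nearest MM-401 WDR5 peak (bp, log scale), for the 944 peaks absent under MM-401 only and the 1205 peaks absent under MM-401 and 4OHT. At 500 bp the lines stand at 33.8% and 29.7%, and both rise most steeply below 1 kb and again above 10 kb.

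Some of the close MM-401 peaks belonged to the same region of WDR5 in the other line. For 117 of the 319 sites with a gap of at most 500 bp, a single EtOH WDR5 peak overlapped both the site and the nearest MM-401 peak, and the count was also 117 for 4OHT. A single H3K4me2 peak overlapped both at 195 of the 319 (61.1%) in DMSO and at 262 (82.1%) under MM-401. The nearest MM-401 peak overlapped a DMSO WDR5 peak of its own in 83 of the 319 (26%). These shares were not computed for the other sets and only describe the near sites. For these near sites a shift of the called position and a loss of the site could not be told apart, and 35 of them had a gap of only 1 bp, among them chr1:178743651-178743950 within an H3K4me2 peak of 8425 bp in DMSO and 8875 bp under MM-401.

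The 374 far sites carried H3K4me2 less often than the near ones in every list but DMSO, where the Wilson intervals of the classes overlapped. The shares at far sites were 79.1% in DMSO, 88.2% after MM-401, 89.6% in EtOH and 85.8% after 4OHT, against 82.8%, 94.7%, 98.1% and 93.7% at sites with a gap of at most 500 bp. Median site width was 200 bp in both classes. The H3K4me2 peak under MM-401 measured a median of 2425 bp at far sites and 3038 bp at near ones. The farthest site, chr4:25208826-25208900, was 75 bp wide and 2349851 bp from an MM-401 WDR5 peak. WDR5 there measured 175 bp in EtOH and 375 bp under 4OHT, and H3K4me2 overlapped it only under MM-401, with 1750 bp. Another far site, chr12:10397701-10397900, had H3K4me2 in every condition, from 1325 bp in DMSO to 2025 bp under 4OHT, and no MM-401 WDR5 peak within 875426 bp.

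Neighbouring DMSO WDR5 peaks differed in their presence under MM-401. Another DMSO WDR5 peak lay within 2 kb of 394 of the 944 sites (41.7%). In 120 of these 394 (30.5%) that neighbour was overlapped under MM-401, and in 62 (15.7%) it was an MM-401-only absent peak itself. Most neighbours belonged to neither kind. Over all 13744 peaks, 61.2% were absent under MM-401 and 6.87% were MM-401-only absent peaks. Neighbours were not counted for other sets, so these counts are a description and not a trait particular to the 944 sites.

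MLL1 was called at few of these sites. The MLL1 antibody used in the study recognises the C-terminal fragment of MLL1, which the MLL-AF9 fusion lacks. In DMSO, MLL1 overlapped 36 of the 944 sites (3.81%, 2.77 to 5.23%), against 3.10% of all 13744 peaks and 3.76% of the peaks in all 4 lists. The difference from the latter was 0.05 points (-1.56 to 1.75). In DMSO the sites thus did not detectably differ from the peaks in all 4 lists in MLL1, although differences of up to 1.75 points lie within the interval.

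In the MM-401 list, MLL1 overlapped 42 sites (4.45%, 3.31 to 5.96%), against 5.62% of all peaks and 8.43% of the peaks in all 4 lists. The difference from the latter was -3.98 points (-6.02 to -1.90) and stayed below 0 at equal widths, at -2.96 points (-5.16 to -0.76). The difference at equal widths was -2.50 points (-4.53 to -0.47) from the peaks absent under both treatments and -0.62 points (-2.49 to 1.25) from the peaks absent under 4OHT only. From the peaks absent in EtOH only it was -1.20 points (-3.34 to 0.95). At equal widths these sites thus held MLL1 under MM-401 less often than the peaks in all 4 lists and those absent under both treatments. A difference from the 4OHT-only and EtOH-only sets, which had WDR5 under MM-401, was not detectable. The set absent under both treatments lacked WDR5 under MM-401 as well. A lower MLL1 share therefore did not follow absence of WDR5 across the sets. Because different callers made the MLL1 lists of DMSO and MM-401, the shares in one list are not compared with those in the other.

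**Figure D5:**
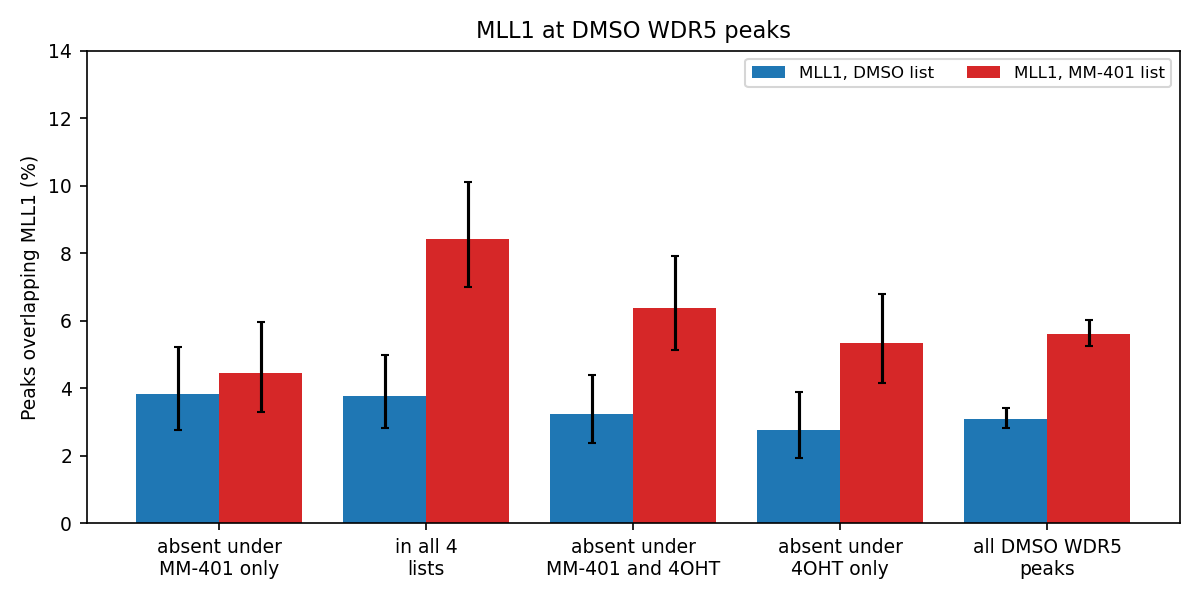
Share of DMSO WDR5 peaks (%) that overlapped MLL1 in the DMSO and MM-401 MLL1 lists, by set. Bars are shares and lines 95% Wilson intervals. In the MM-401 list the share was 4.45% at peaks absent under MM-401 only and 8.43% at peaks in all 4 lists, and the 2 MLL1 lists come from different callers.

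MLL1 was also counted in a wider window that includes the site. Within 2 kb an MLL1 peak was found for 199 sites (21.1%) in DMSO and 406 (43.0%) under MM-401, against 229 (18.7%) and 472 (38.6%) of the 1222 peaks in all 4 lists and 16.5% and 35.9% of all 13744 peaks. The smaller share under MM-401 thus held for direct overlap and not for the 2 kb neighbourhood. MLL1 was called in DMSO alone at 31 sites, under MM-401 alone at 37, in both lists at 5 (0.53%) and in neither at 871 (92.3%). Among the 1222 peaks in all 4 lists, 13 (1.06%) had MLL1 in both. The MLL1 lists differ in caller and length, with 8525 peaks in DMSO and 27345 under MM-401. These counts therefore do not show gain or loss of MLL1.

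The 5 sites with MLL1 in both lists were not alike. At chr19:6276176-6276650, WDR5 was called over 1000 bp in EtOH and 825 bp under 4OHT, and H3K4me2 over 2700 bp in DMSO and 6325 bp under MM-401. At chr9:107514526-107514925 the H3K4me2 peak measured 3150 bp in DMSO and 2700 bp under MM-401, with 17076 bp to the nearest MM-401 WDR5 peak. At both sites MLL1 and H3K4me2 were called under MM-401 without WDR5. At chr16:57391576-57391750, H3K4me2 was not called within 26376 bp in DMSO and covered only 175 bp under MM-401, although MLL1 was called in both lists.

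The sites were spread over all 19 autosomes. Chromosome 11 held 92 of the 944 (9.75%, 8.01 to 11.8%) against 6.77% (6.36 to 7.20%) of all 13744 peaks, and chromosome 1 held 72 (7.63%, 6.10 to 9.50%) against 10.5% (10.0 to 11.1%). On the other chromosomes the intervals of the 2 shares overlapped. The peaks in all 4 lists had 8.35% (6.92 to 10.0%) on chromosome 11 and 10.7% (9.11 to 12.6%) on chromosome 1, and for both chromosomes these intervals overlapped those of the 944 sites.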

How the data were processed

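The authors deposited 10 lists of peak positions, called on 1 library each, with no score, ratio or read count. The 4 inputs of the 14 samples were not analysed here. Per the labels reads were aligned with Bowtie to mm9, with no version given in the sources used here. In 9 lists the peaks carried HPeak names on a 25 bp grid and were read as 1-based inclusive. The DMSO MLL1 list had neither (4.12% of starts on the grid), the study's methods name MACS for it, and its starts were read as 0-based. No mm9 genome or annotation was used, so the planned gene and sequence results were not run.

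Overlap meant at least 1 bp shared. Shares carry 95% Wilson intervals and differences Newcombe intervals, or normal intervals where weighted to the width classes. Both kinds of interval describe counting error alone, as if adjacent peaks were independent. Python 3.11.15, numpy 2.4.6, scipy 1.17.1 and matplotlib 3.10.9 were used, and the code was tested on simulated data and against bedtools 2.31.1. Alternatives changed the overlap, the width limit, list length, the width of peaks used and the reading of starts. Named peaks were drawn from the widest, nearest and farthest sites, the widest with MLL1 in both lists or without H3K4me2, those in the widest H3K4me2 peaks, and those with H3K4me2 in DMSO and none under MM-401. The members, comparison sets and rules were chosen with earlier results of these data known.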

Additional observations from a re-analysis of the deposited data

Results flagged for a closer look

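At the 944 sites 4 measures of H3K4me2 moved in opposite directions in the 2 lines, and in each case the difference was not tested, because each condition had 1 library. The share with H3K4me2 was 10.38 percentage points higher under MM-401 than in DMSO and changed by -4.13 points from EtOH to 4OHT. The median width of the H3K4me2 peak over the site was 637.5 bp larger under MM-401, while under 4OHT it changed by -1000 bp. The share of sites in a break between H3K4me2 peaks changed by -9.746 points under MM-401 and by 3.92 points under 4OHT. The mean number of bases covered within 1 kb of the centre changed by 146.3 bp and by -112.9 bp. All 4 measures had the same directions at the peaks in all 4 lists and over all 13744 peaks. Over all peaks the share with H3K4me2 went from 88.7% to 92.6% with MM-401 and from 91.3% to 88.8% with 4OHT, and the median width from 2100 to 2450 bp and from 3250 to 2600 bp. The share in a break went from 5.26% to 1.79% and from 1.11% to 2.90%, and the mean bases within 1 kb from 1509 to 1592 and from 1630 to 1566.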

How the results depend on the processing

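Of 92 values computed under alternatives, 55 stayed within the counting interval of the value reported (for the number of sites, within 1.5 times) and 37 moved further. The MLL1 difference in DMSO from the peaks in all 4 lists, whose interval included 0, took the other sign with 50% covered in the selection (-0.25 points), lists of equal length (-0.19) and no width limit (-1.32), each again with an interval that included 0. The number of sites was 621 when 50% of the DMSO peak had to be covered in the selection (503 of them among the 944), 501 when an MM-401 WDR5 peak within 2 kb counted as present, and 547 with the widest 50% of each WDR5 list (428 among the 944). The share with H3K4me2 was, in the order DMSO, MM-401, EtOH and 4OHT, 76.0%, 89.2%, 92.4% and 86.8% with 50% covered in the selection, and 83.9%, 94.9%, 96.7% and 92.9% with the widest 50% of WDR5 peaks. With H3K4me2 counted within 2 kb it was 96.1%, 96.1%, 96.1% and 96.2%, so that the lower share in DMSO was no longer seen. With no MM-401 peak within 2 kb it was 89.8% after MM-401, 91.4% in EtOH and 88.4% after 4OHT. It was 78.1% in DMSO with WDR5 lists cut to the length of the shortest, and 70.8%, 88.3% and 84.6% in DMSO, MM-401 and 4OHT when 50% of the site had to be covered. MLL1 within 2 kb was found at 21.1% in DMSO and 43.0% under MM-401. The MLL1 share was 1.91% in DMSO with the widest 50% of MLL1 peaks and 6.22% under MM-401 with the widest 50% of WDR5 peaks. An MM-401 WDR5 peak lay within 2 kb at 57.2% with 50% covered, 23.4% with the widest 50% and 41.0% with lists of equal length. The median distance was 626 bp with 50% covered, 28376 bp with none within 2 kb, 28251 bp with the widest 50% and 6851 bp with equal lengths. At equal widths the H3K4me2 difference from the peaks in all 4 lists under MM-401 was -0.0702 points. Under alternatives chosen after seeing the data, the share in a DMSO H3K4me2 break was 17.2% with 50% covered, 11.0% with none within 2 kb and 10.8% with flanks of 500 bp. Only the setting with none within 2 kb was stricter throughout, and its sites all lay among the 944. The settings with 50% covered, the widest 50% and equal lengths made presence stricter but absence under MM-401 looser. With 50% covered, absence meant that MM-401 peaks covered less than 50% of the site. The sites outside the 944 in that setting therefore overlapped an MM-401 WDR5 peak. For the remaining shifts the cause was not tested. No paired analysis was possible because there was 1 library per condition and antibody. Unknown depth and unequal list lengths limit every absence.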
